A study of Mus musculus with 16 samples.

Results

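Keratins are the intermediate filament proteins of epithelia, and a filament is built from pairs of a type I (acidic) and a type II (basic) chain. In the mammary gland, basal and myoepithelial cells carry Krt5 with Krt14, and luminal cells carry Krt8 with Krt18, often together with Krt7 and Krt19. Stratified epithelia replace Krt5 and Krt14 by Krt1 and Krt10 as they cornify, and hair follicles use a further set.

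The family was taken as every row of the count table whose Entrez identifier maps to a mouse symbol of Krt and a number alone and which held 10 or more counts in total over 15 tumors. Of 50 such symbols, 35 met the minimum, out of 27179 genes in the table. Krt76, with 11 counts in total, was the lowest member, and Krt27 and Krt88 were the nearest symbols left out, with 9 and 8 counts. Sorted by where the proteins are known to occur, the 35 members were 6 basal keratins (Krt5, Krt14, Krt15, Krt16, Krt17 and Krt42), 6 luminal or simple-epithelial keratins (Krt7, Krt8, Krt18, Krt19, Krt20 and Krt23), 9 keratins of differentiating and cornifying epithelia, and 14 others, mostly of the hair follicle, placed together with Krt75, Krt90 and Krt222. Counts were above 0 in all 15 tumors for 21 members. The low-count filter kept 23 members for testing and removed 12, namely Krt4, Krt9, Krt76 and Krt77 of the cornifying set and Krt25, Krt39, Krt40, Krt73, Krt74, Krt84, Krt86 and Krt87 of the hair set.

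RNA was sequenced from mammary carcinomas that grew from second-generation transplants of a single Trp53 null tumor line, family F, placed in the mammary glands of BALB/cJ females aged 8 to 10 weeks. Treatment began at a tumor volume of 65 to 100 mm3, and tumors were taken on day 7. There were 5 groups of 3 tumors. TGFbi+RT+anti-PD-L1 mice (the triple combination) received IPW-5371, a small molecule that inhibits TGFβ signaling, at 20 mg/kg daily, 10 Gy of focal radiation and an antibody against PD-L1 at 10 mg/kg once a week. TGFbi+RT mice received IPW-5371 and radiation at those doses, RT mice radiation, TGFbi mice IPW-5371, and Sham mice were the controls. The treatment protocol, given in the same words for every group, lists a control immunoglobulin G at 25 mg/kg for Sham treatment and does not say whether other groups received it. Every group is Trp53 null and descends from the same tumor family, so no other tumor line is represented, and the labels number the tumors of a group without saying more about the mice.

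Libraries held 11002869 to 17184023 counts. Leukocyte markers set 2 tumors apart, TGFbi+RT replicate 3 and triple replicate 2, with a summed level of 2654 and 5261 CPM (counts scaled to a common library total with TMM factors) against 138 to 1352 CPM in the other 13 tumors. Fibroblast markers split the tumors otherwise. Their sum was 7928 CPM in Sham replicate 1, against 415.9 and 563 CPM in Sham replicates 2 and 3. It was 7916, 1017 and 730.5 CPM in RT and 1392, 8009 and 6908 CPM in triple tumors. Endothelial sums were 566 CPM in Sham replicate 1, against 95.7 and 133 CPM in Sham replicates 2 and 3. The part of these cells in the keratin levels was not tested. Epcam, an epithelial marker, was at 110.2 to 203 CPM and Trp63, a basal transcription factor, at 292 to 1003 CPM in the 15 tumors. All RT libraries and triple replicates 2 and 3 carry 1 library code and all other tumors another. Differences of RT from Sham, and of TGFbi+RT from RT, therefore cannot be told apart from that code. That holds for every gene described below.

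The members lie in 2 gene clusters of the mouse genome (build GRCm38). The cluster on chromosome 11 (99233098 to 100269871, 1.04 Mb) holds 15 members, 14 of type I and Krt222. The cluster on chromosome 15 (101349571 to 102032026, 0.682 Mb) holds 20 members, of which 19 are type II and 1, Krt18, is type I. Krt18 (102028216 to 102032026, plus strand) is 23.87 kb from its partner Krt8 (101996711 to 102004342, minus strand). Krt90 (101552356 to 101562950) and Krt75 (101563343 to 101573904) follow each other on the minus strand with 0.393 kb between them, so reads of one that run past its end could be counted for the other. Krt14, Krt16, Krt17 and Krt42 are close paralogs on chromosome 11, and their split of shared reads is uncertain, since the treatment of multi-mapping reads is not given in the sources used here.

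RefSeq (GRCm38.p6) gave promoter sequence for 23 of the 35 members. The 150 bases before the annotated start are shown, 5′ to 3′ on the gene's own strand, for the adjacent genes Krt90 and Krt75, which had the smallest p-values of the family in the test over 5 groups, for Krt5, the most abundant member, and for the luminal pair Krt8 and Krt18. Capitals mark ATAAAA, an A/T-rich box, in Krt75 (-32 to -27) and Krt5 (-29 to -24), and CAGACA, known as the SMAD box, in Krt90 (-44 to -39), counted from -1 at the base before the start. They lie at chr15:101562951-101563100 (minus strand, Krt90), chr15:101573905-101574054 (minus, Krt75), chr15:101712906-101713055 (minus, Krt5), chr15:102004343-102004492 (minus, Krt8) and chr15:102028066-102028215 (plus, Krt18).
Krt90: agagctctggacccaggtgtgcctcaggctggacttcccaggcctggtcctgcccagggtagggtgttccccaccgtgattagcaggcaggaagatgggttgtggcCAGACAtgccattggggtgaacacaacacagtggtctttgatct
Krt75: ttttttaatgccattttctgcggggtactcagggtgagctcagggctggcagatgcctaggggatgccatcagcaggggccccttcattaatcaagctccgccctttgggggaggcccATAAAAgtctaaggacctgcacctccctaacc
Krt5: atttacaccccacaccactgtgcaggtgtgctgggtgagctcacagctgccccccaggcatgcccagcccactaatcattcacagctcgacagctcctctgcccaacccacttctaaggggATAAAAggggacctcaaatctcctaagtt
Krt8: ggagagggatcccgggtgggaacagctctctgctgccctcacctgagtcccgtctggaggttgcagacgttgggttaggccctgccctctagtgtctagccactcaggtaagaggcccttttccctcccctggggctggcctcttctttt
Krt18: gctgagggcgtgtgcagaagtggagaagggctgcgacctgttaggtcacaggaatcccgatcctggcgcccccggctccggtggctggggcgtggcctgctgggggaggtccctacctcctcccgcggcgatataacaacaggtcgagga

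Over the full 250 bases and on both strands, TATAAA was found in 9 of the 23 keratin promoters and in 12.4% of all 32851 promoters, and ATAAAA, which can overlap TATAAA by 5 bases and was added after the sequences were seen, in 11 of 23 and in 17.0%. CAGACA was found in 9 of 23 and in 17.1% of all promoters, among them Krt14 (-56 to -51), Krt7 (-171 to -166) and Krt18 (-235 to -230). TGANTCA, the AP-1 site, was in 0 of 23 and in 6.75% of all. Of these 4 motifs, none lies in the printed stretches of Krt8 and Krt18. These matches describe the letters only.

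Basal keratins, a class that here includes Krt17, made up most of the family in every tumor. Per unit of gene length (RPKM from the TMM-scaled counts and the deposited exon length), they held 67.2% to 87.8% of the summed keratin level, cornifying keratins 8.96% to 16.8%, luminal keratins 1.64% to 18.0% and the hair set with Krt222 0.754% to 3.13%. Krt79 alone held 6.33% to 15.5%, which was most of the cornifying part in every tumor but TGFbi replicate 3. Keratins together took 0.0633% to 0.294% of a tumor's counts. The mean level over 15 tumors was highest for Krt5 at 262 RPKM, followed by Krt17 at 133, Krt79 at 64.9 and Krt14 at 51.8 RPKM, then Krt23 at 14.6, Krt18 at 12.6, Krt7 at 8.86, Krt16 at 7.37, Krt8 at 6.77 and Krt80 at 5.93 RPKM. Krt5 alone held 31.4% to 69.5% of the keratin level, and Krt17 held 10.3% to 29.9%. In RT replicate 3, Krt5 and Krt14 held 31.4% and 11.2%, so the basal majority there rests on placing Krt17 in the class. Krt17, a type I keratin of appendages and of stressed epithelium, lay above Krt14 in mean level, although Krt14 is the usual partner of Krt5, and the ratio of Krt5 to Krt14 per length was 1.82 to 18.6.

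**Figure D1:**
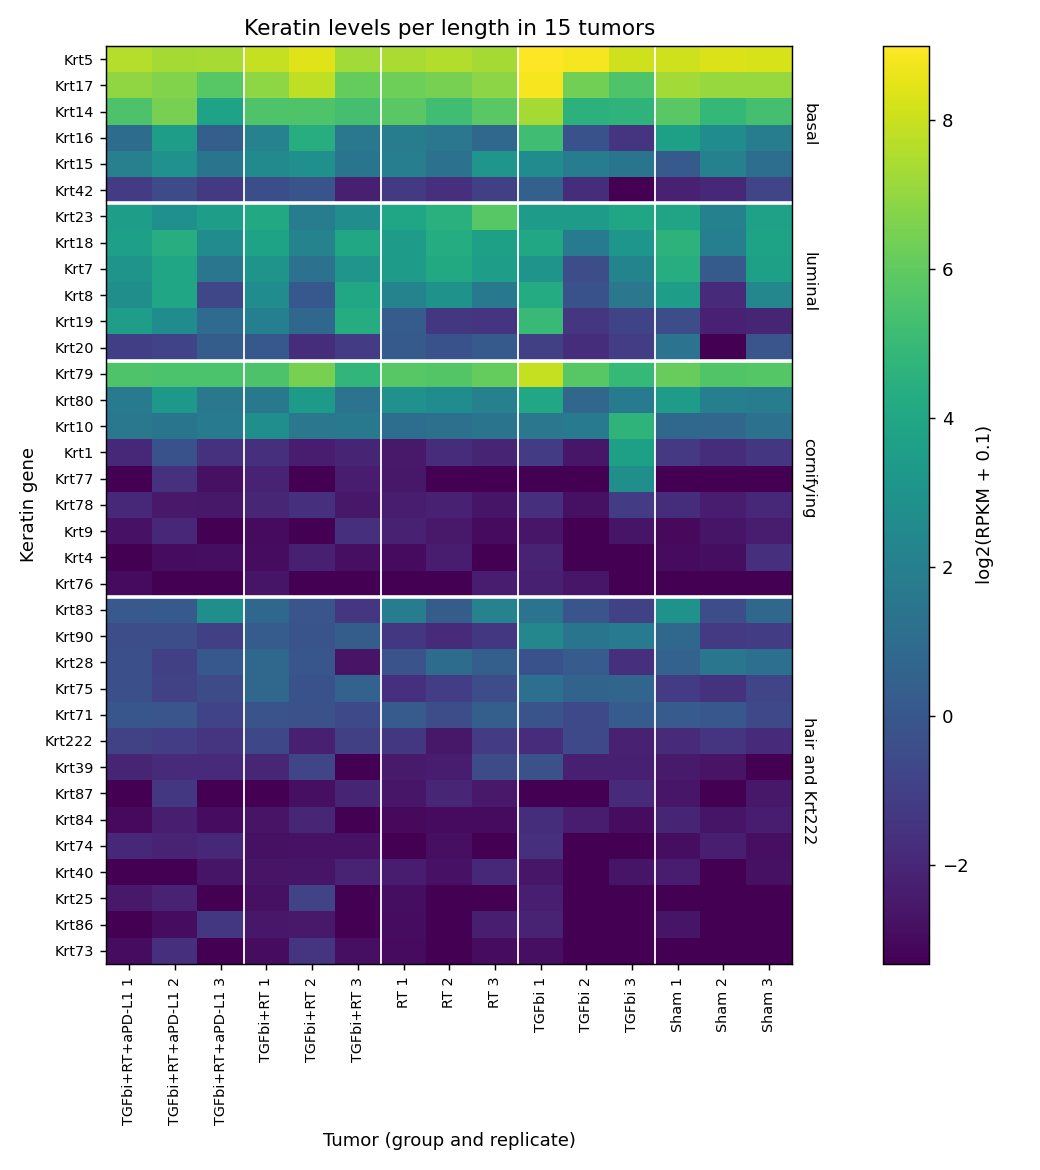
Level of each of the 35 keratins (rows, by class and falling mean) in each of 15 tumors (columns, by group), as log2 of RPKM plus 0.1. Krt5, Krt17, Krt79 and Krt14 stay bright across the columns, while Krt1 and Krt77 are bright in TGFbi replicate 3 alone.

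The type II to type I ratio of summed levels per length was 1.01 to 2.33 in triple tumors, 1.35 to 1.42 in TGFbi+RT, 0.986 to 1.57 in RT, 1.10 to 3.89 in TGFbi and 1.48 to 2.06 in Sham tumors, so triple, RT and TGFbi tumors overlapped Sham and TGFbi+RT tumors lay below it. TGFbi replicate 1 was the tumor with the highest level for 15 of the 35 members, including Krt5, Krt14, Krt16, Krt17, Krt79, Krt80, Krt8, Krt19, Krt75 and Krt90. Its summed keratin level was 2848 CPM, against 649.6 to 1453 CPM in the other tumors.

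Krt5, the type II keratin of basal cells, measured 438, 351 and 371 CPM in triple tumors, 529, 748 and 347 CPM in TGFbi+RT tumors, 377, 418 and 351 CPM in RT tumors, 1117, 978 and 612 CPM in TGFbi tumors and 603, 721 and 658 CPM in Sham tumors. In 8 of 9 irradiated tumors it was below all 6 unirradiated ones, and the exception was TGFbi+RT replicate 2. Against Sham, the log2 fold change was -0.77 ± 0.26 (SE) in triple tumors (edgeR adjusted p = 0.225) and -0.79 ± 0.26 in RT tumors (adjusted p = 0.999), and neither group overlapped Sham. Against TGFbi tumors, TGFbi+RT tumors had a log2 fold change of -0.74 ± 0.26 (edgeR adjusted p = 0.789), with overlapping values. None of these passed the threshold over 16017 genes. With the library code as a term, the RT difference was -0.51 (edgeR adjusted p = 0.897). Only the triple group holds both codes, so that term rests on triple replicate 1 against triple replicates 2 and 3. It cannot separate the code from radiation in RT tumors. In bulk tumors, fewer cells of a type and less RNA per cell cannot be told apart. Leukocyte marker sums, over 15 genes, were 700 to 5261 CPM in triple, 622 to 2654 CPM in TGFbi+RT, 209 to 1352 CPM in RT, 303 to 795 CPM in TGFbi and 138 to 587 CPM in Sham tumors, and their part in the Krt5 levels was not tested. Without the 2 leukocyte-rich tumors the triple difference in Krt5 was -0.73 (edgeR adjusted p = 0.473).

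Krt14, the type I keratin of basal cells, did not share that order. It measured 78.2, 146 and 23.2 CPM in triple tumors, 80.1, 80.4 and 67.0 CPM in TGFbi+RT, 95.7, 61.5 and 94.9 CPM in RT, 269, 40.0 and 42.3 CPM in TGFbi and 95.2, 48.5 and 67.4 CPM in Sham tumors. All 4 treated groups overlapped Sham. Krt17 measured 189, 153 and 83.8 CPM in triple tumors, 182, 338 and 102 CPM in TGFbi+RT, 118, 132 and 175 CPM in RT, 693, 126 and 74.2 CPM in TGFbi and 233, 204 and 207 CPM in Sham tumors. All triple and all RT tumors were below all Sham tumors in Krt17, with log2 fold changes of -0.59 ± 0.66 (edgeR adjusted p = 0.677) and -0.60 ± 0.66 (adjusted p = 0.999).

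Krt16, which appears in wounded and hyperproliferative epithelium, was the most variable of the basal keratins detected in every tumor, with a highest value 143 times the lowest. It measured 3.07, 17.9 and 1.94 CPM in triple tumors, 6.62, 31.5 and 4.61 CPM in TGFbi+RT, 5.55, 4.48 and 2.60 CPM in RT, 58.0, 1.20 and 0.404 CPM in TGFbi and 19.9, 9.66 and 5.64 CPM in Sham tumors. Krt6a, its usual type II partner, whose symbol carries a letter and which is therefore no member, was also highest in TGFbi replicate 1, at 172.9 CPM, and is nearly identical in sequence to Krt6b. Krt15, a keratin of basal stem cells of the hair follicle, lay between 1.73 and 14.5 CPM, and Krt42 between 0 and 1.94 CPM. In TGFbi tumors against Sham, 6 of 6 basal keratins had a positive log2 fold change, with a median of 0.74, which became -0.94 without TGFbi replicate 1. The class medians of the other comparisons with Sham were -0.18 in triple, 0.19 in TGFbi+RT and -0.17 in RT tumors. They became 0.25 without triple replicate 3, 0.17 without Sham replicate 1 and 0.001 without triple replicate 1 for the triple tumors, and -0.27 without TGFbi+RT replicate 2 and -0.004 without Sham replicate 3 for TGFbi+RT tumors.

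**Figure D2:**
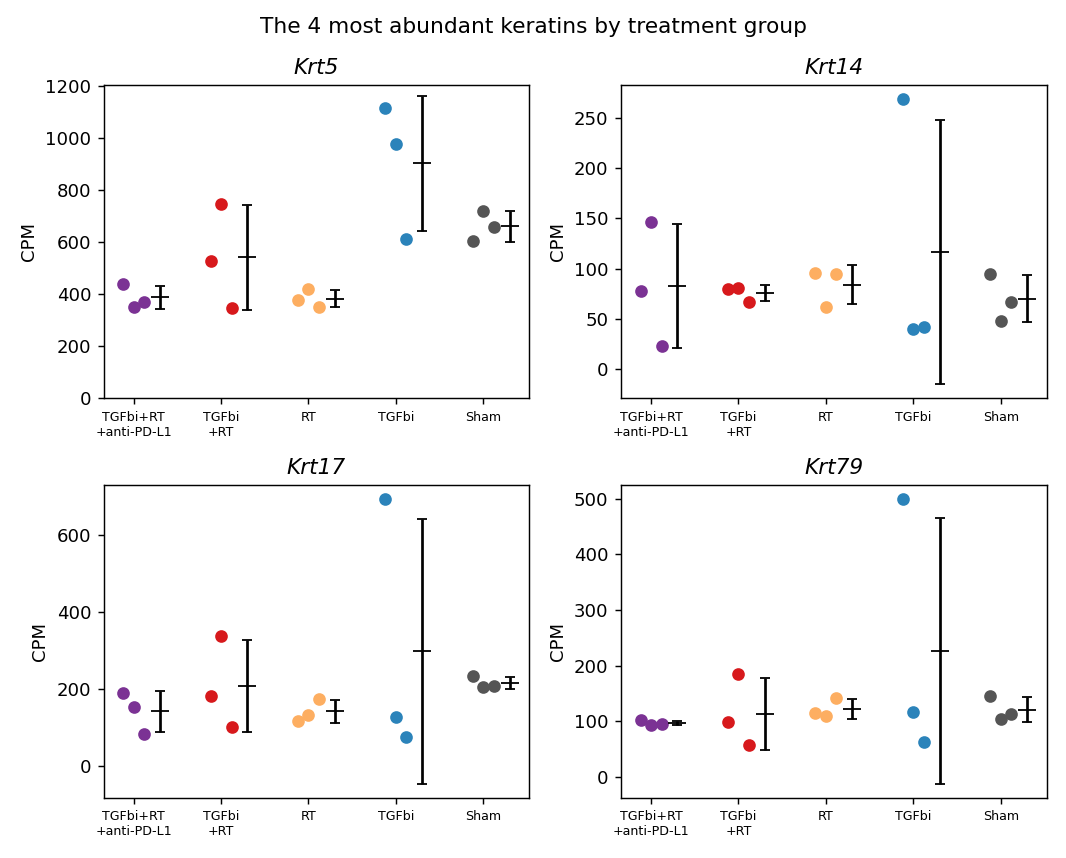
Krt5, Krt14, Krt17 and Krt79 in CPM (vertical axis) by treatment group, 1 point per tumor, with the mean and SD of 3 tumors beside the points. The irradiated groups lie below Sham in Krt5 apart from TGFbi+RT replicate 2 at 748 CPM, and TGFbi replicate 1 is the highest point in each panel.

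The luminal pair Krt8 and Krt18 varied widely among tumors of the same group. Krt8, the type II keratin of simple epithelium, measured 12.6, 28.3 and 0.929 CPM in triple tumors, 11.3, 1.73 and 29.4 CPM in TGFbi+RT, 8.17, 13.8 and 5.55 CPM in RT, 33.9, 1.36 and 5.17 CPM in TGFbi and 21.5, 0.328 and 9.27 CPM in Sham tumors. Every group overlapped Sham, which held the lowest value of all. Krt18 measured 16.9, 28.7 and 8.61 CPM in triple tumors, 19.5, 6.14 and 23.5 CPM in TGFbi+RT, 15.6, 28.0 and 17.8 CPM in RT, 23.0, 4.71 and 12.4 CPM in TGFbi and 34.5, 5.40 and 20.0 CPM in Sham tumors. Over the 7 comparisons the smallest edgeR adjusted p of a luminal keratin was 0.237, that of Krt19 in TGFbi+RT against Sham.

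Krt8 and Krt18 varied together over the 15 tumors, with Pearson's r of 0.92 (permutation adjusted p = 6e-05 over 6 pairs, from a p of 1e-05 that is the smallest the permutations can give) and Spearman's rho of 0.89 (permutation adjusted p = 0.00036) on log2(CPM + 0.5). The r was 0.91 without the 2 tumors farthest from the median of Krt8 and 0.94 among the 10 tumors with the Sham library code, while the other code has 5 tumors, too few for a value. Krt14 and Krt17 gave an r of 0.73 (permutation adjusted p = 0.0096) and a rho of 0.54 (adjusted p = 0.086), and 0.85 within the 10 tumors, but 0.36 without the 2 farthest tumors (permutation adjusted p = 0.34), so the relation rests on those tumors. Krt14 and Krt18 gave 0.58 and 0.54 (permutation adjusted p = 0.048 and 0.086), with 0.56 within the 10 tumors (adjusted p = 0.13) and 0.61 without the 2 farthest tumors (permutation adjusted p = 0.089). Krt5 with Krt14 gave 0.14 and -0.07, with 0.27 within the 10 tumors and -0.15 without the 2 farthest, and Krt5 with Krt8 gave -0.23 and -0.26, with -0.35 and -0.43, all with permutation adjusted p of 0.19 or above. The filament partners Krt5 and Krt14 thus had no detectable relation over these tumors.

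**Figure D3:**
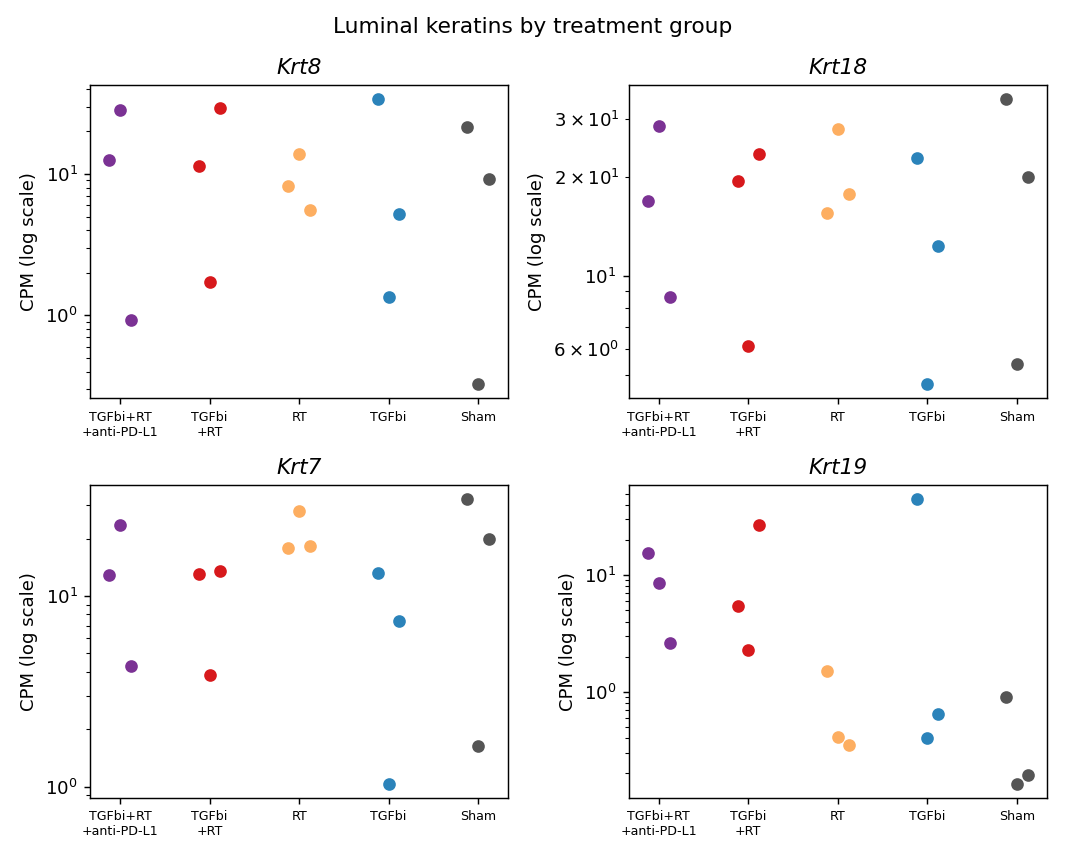
Krt8, Krt18, Krt7 and Krt19 in CPM (log axis) by treatment group, 1 point per tumor. Krt8, Krt18 and Krt7 spread within each group, and Krt19 lies at 2.28 to 27.1 CPM in the 6 tumors given both inhibitor and radiation, against 0.164 to 0.895 CPM in Sham.

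Krt19, a luminal type I keratin that lacks the usual tail domain, had its highest values in tumors given the inhibitor. It measured 15.5, 8.51 and 2.62 CPM in triple tumors, 5.43, 2.28 and 27.1 CPM in TGFbi+RT tumors, 1.50, 0.407 and 0.351 CPM in RT tumors, 45.0, 0.399 and 0.647 CPM in TGFbi tumors and 0.895, 0.164 and 0.195 CPM in Sham tumors. It was above all 6 tumors without inhibitor in 7 of 9 tumors with it, and the exceptions were TGFbi replicates 2 and 3. Against Sham the log2 fold changes were 4.34 ± 1.66 in triple (edgeR adjusted p = 0.263), 4.71 ± 1.68 in TGFbi+RT (adjusted p = 0.237) and 5.12 ± 1.70 in TGFbi tumors (adjusted p = 0.434). Without TGFbi replicate 1 the last value was 0.27. TGFbi+RT exceeded RT by 3.92 ± 1.59 (edgeR adjusted p = 0.482). Without TGFbi+RT replicate 3 the difference was 2.34 from RT and 3.11 from Sham. DESeq2 called Krt19 in TGFbi+RT against Sham (4.79, adjusted p = 0.0433).

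The list of luminal markers as a whole did not share the order of Krt19. Its sum was 288 to 796 CPM in triple, 389 to 809 CPM in TGFbi+RT, 549.9 to 757 CPM in RT, 363 to 513 CPM in TGFbi and 379.7 to 726 CPM in Sham tumors, and in the 2 by 2 comparison described further on 7 of its 17 tested genes were higher and 10 lower with the inhibitor (median -0.33, all genes -0.01). Some luminal genes and the adipocyte markers were high in many of the tumors with high Krt19, and their part in the Krt19 levels was not tested. Foxa1, a luminal transcription factor, was at 5.60, 4.36 and 0.169 CPM in triple, 3.20, 0.708 and 15.9 CPM in TGFbi+RT, 0.312, 0.271 and 0.492 CPM in RT, 12.7, 0.239 and 0 CPM in TGFbi and 0 in all 3 Sham tumors. Foxa1 and Pgr, the progesterone receptor, were each above all 6 tumors without inhibitor in 6 of 9 tumors with it. Sums over 7 adipocyte markers were 156 to 485 CPM in triple, 71.5 to 599 CPM in TGFbi+RT, 11.0 to 154 CPM in RT, 62.1 to 360.0 CPM in TGFbi and 11.6 to 96.9 CPM in Sham tumors.

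Krt7, a type II partner in simple and glandular epithelium, was at 12.9, 23.6 and 4.31 CPM in triple, 13.1, 3.86 and 13.6 CPM in TGFbi+RT, 17.8, 28.0 and 18.3 CPM in RT, 13.2, 1.04 and 7.35 CPM in TGFbi and 32.3, 1.64 and 19.9 CPM in Sham tumors. All 3 TGFbi+RT tumors were below all 3 RT tumors (log2 fold change -1.07 ± 0.94, edgeR adjusted p = 0.704). Krt23, a type I keratin of simple epithelia, was at 17.7, 11.1 and 17.7 CPM in triple, 27.4, 5.35 and 9.98 CPM in TGFbi+RT, 24.3, 34.1 and 85.5 CPM in RT, 16.5, 16.4 and 23.0 CPM in TGFbi and 22.6, 6.47 and 20.0 CPM in Sham tumors. RT tumors were all above Sham (1.55 ± 0.61, edgeR adjusted p = 0.999), and TGFbi+RT against RT gave -1.75 ± 0.62 (adjusted p = 0.479) with overlapping values. Without RT replicate 3 these values were 0.83 and -1.04, and without TGFbi+RT replicate 1 the second was -2.65. Krt20, of intestinal and urothelial epithelium, reached 4.83 CPM at most.

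Among the 9 cornifying keratins, Krt79 was the only one at a high level. Krt79, a type II keratin known from sebaceous ducts and the upper hair follicle, was at 102, 94.2 and 95.5 CPM in triple, 98.1, 184 and 58.1 CPM in TGFbi+RT, 114, 109.6 and 142 CPM in RT, 499, 116 and 63.2 CPM in TGFbi and 146, 104 and 113 CPM in Sham tumors. The triple tumors lay just below Sham (-0.32 ± 0.58, edgeR adjusted p = 0.809). Krt80, a type II keratin of differentiating cells, lay between 2.79 and 28.5 CPM, and Krt78 between 0.160 and 1.21 CPM. Krt4, Krt9 and Krt76 did not exceed 0.597 CPM in any tumor.

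Krt10 and Krt1, the pair of suprabasal epidermis, stood out in TGFbi replicate 3. Krt10 measured 6.20, 5.52 and 6.59 CPM in triple, 14.7, 5.90 and 6.48 CPM in TGFbi+RT, 4.30, 4.68 and 5.34 CPM in RT, 5.89, 6.94 and 54.1 CPM in TGFbi and 3.58, 3.28 and 4.99 CPM in Sham tumors. All 9 tumors with inhibitor were above all 6 without it, by a narrow margin at 5.52 against 5.34 CPM. The log2 fold change in TGFbi against Sham was 2.49 ± 0.71 (edgeR adjusted p = 0.368), and 0.71 without TGFbi replicate 3. Krt1 measured 31.4 CPM in TGFbi replicate 3 and at most 1.84 CPM in each of the other 14 tumors. Its log2 fold change in TGFbi against Sham was 4.01 ± 1.33 (edgeR adjusted p = 0.434) and -0.35 without that replicate. Krt77, another suprabasal type II keratin, was at 11.9 CPM in the same tumor and at most 0.409 CPM elsewhere, with 0 in all Sham tumors. Flg2, Hrnr and Krtdap, which encode late epidermal proteins, were also highest there, at 12.4, 16.5 and 4.04 CPM, against at most 0.545, 0.817 and 1.06 CPM in the other tumors (Krt77, Flg2 and Hrnr were chosen after their values were seen). Summed over 25 cornified envelope genes, TGFbi replicate 3 did not stand apart, at 108.6 CPM. TGFbi replicate 1 was at 146.7, TGFbi+RT replicate 2 at 115.5, triple replicate 2 at 114.7 and Sham replicate 1 at 113.6 CPM. The library of TGFbi replicate 3 is 1 of 2 marked as resubmitted, and the part of skin RNA in it was not tested. Krt1 and Krt10 gave an r of 0.81 over the 15 tumors (permutation adjusted p = 0.059) and 0.83 within the 10 tumors of the Sham library code, but -0.09 without the 2 farthest tumors.

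Krt75 and Krt90 were the keratins with the smallest p-values. Krt75, a type II keratin of the companion layer of the hair follicle, measured 2.33, 1.43 and 1.94 CPM in triple tumors, 5.36, 2.44 and 4.43 CPM in TGFbi+RT tumors, 0.748, 1.22 and 2.11 CPM in RT tumors, 7.12, 4.63 and 4.93 CPM in TGFbi tumors and 1.13, 0.819 and 1.62 CPM in Sham tumors. The 6 TGFbi and TGFbi+RT tumors were all above the 6 tumors without inhibitor, and the triple tumors overlapped RT. The log2 fold change against Sham was 2.21 ± 0.43 in TGFbi (edgeR adjusted p = 0.239) and 1.76 ± 0.43 in TGFbi+RT (adjusted p = 0.207). TGFbi+RT exceeded RT by 1.58 ± 0.43 (edgeR adjusted p = 0.448), and triple tumors were all below TGFbi+RT tumors (-1.10 ± 0.42, edgeR adjusted p = 1). Every one of 25 alternatives kept the sign in TGFbi against Sham (1.99 to 2.49), as it did in TGFbi+RT against Sham (1.51 to 2.02).

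Krt90, the downstream neighbor of Krt75, measured 1.67, 1.63 and 1.01 CPM in triple, 2.75, 2.05 and 2.90 CPM in TGFbi+RT, 0.748, 0.475 and 0.773 CPM in RT, 12.8, 6.78 and 8.08 CPM in TGFbi and 4.24, 0.819 and 0.908 CPM in Sham tumors. The 3 TGFbi tumors were above every other tumor. The log2 fold change was 2.20 ± 0.55 in TGFbi against Sham (edgeR adjusted p = 0.298), -1.84 ± 0.54 in TGFbi+RT against TGFbi (adjusted p = 0.789), 1.93 ± 0.57 in TGFbi+RT against RT (adjusted p = 0.465) and -1.58 ± 0.57 in RT against Sham (adjusted p = 0.999). Sham replicate 1 weighed on these values. Without it Krt90 passed in TGFbi against Sham, at 3.40 (edgeR adjusted p = 0.0354), and the RT difference was -0.37. Both genes were at single-digit or low CPM throughout, with 548 counts of Krt75 and 614 of Krt90 over the 15 tumors.

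**Figure D4:**
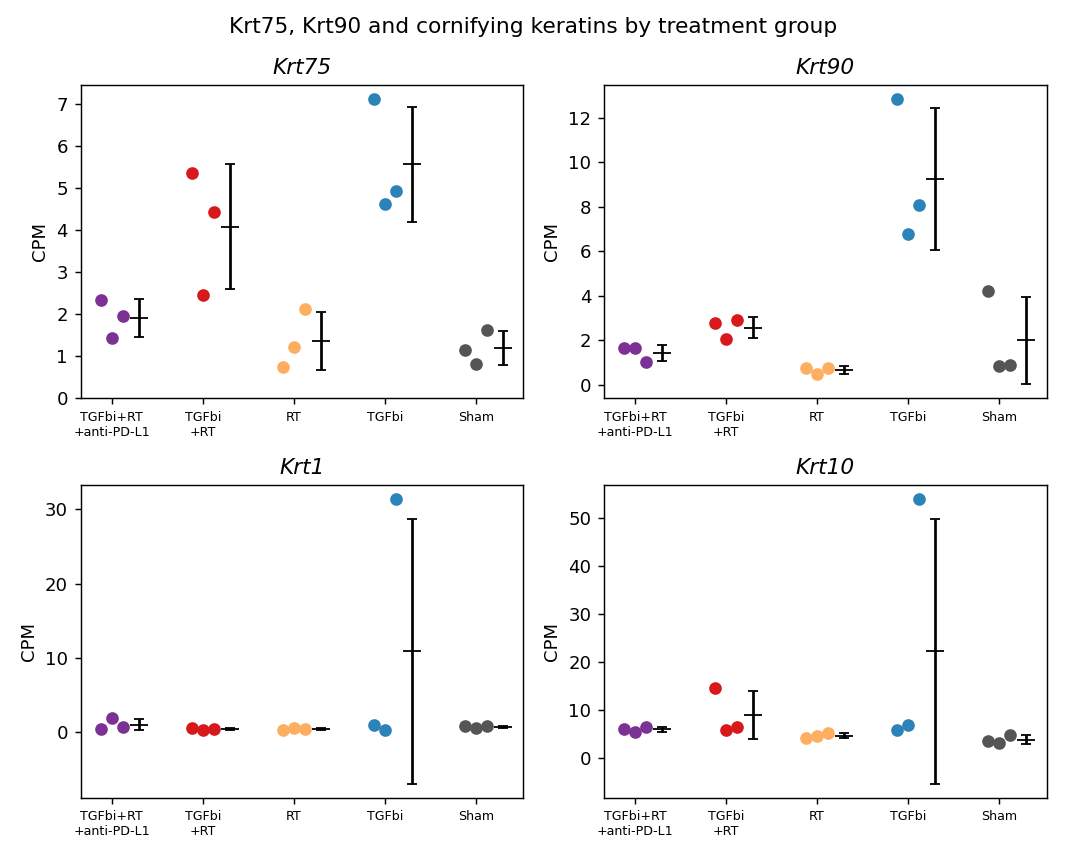
Krt75, Krt90, Krt1 and Krt10 in CPM (vertical axis) by treatment group, 1 point per tumor, with the mean and SD of 3 tumors beside the points. TGFbi tumors lie at 4.63 to 7.12 CPM in Krt75, where they overlap TGFbi+RT, and above all other tumors in Krt90 (6.78 to 12.8 CPM), whereas the TGFbi means of Krt1 and Krt10 rest on replicate 3.

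Among the rest of the hair set, Krt28, a type I keratin of the inner root sheath, was at 0.613 to 1.44 CPM in triple and 0.323 to 1.60 CPM in TGFbi tumors, against 2.03, 4.09 and 3.18 CPM in Sham tumors. Neither group overlapped Sham, and the log2 fold changes were -1.57 ± 0.78 (edgeR adjusted p = 0.365) and -1.59 ± 0.78 (adjusted p = 0.61). Krt83, a hair cortex keratin, ranged from 0.512 to 13.4 CPM, with its highest value in Sham replicate 1. Krt71, also of the inner root sheath, was the steadiest of the set at 1.01 to 2.67 CPM. Krt222, which lacks part of the usual keratin structure, was at 0.204 to 1.52 CPM, and triple tumors were above Sham (0.79 ± 0.68, edgeR adjusted p = 0.598). The margin was narrow, at 0.760 CPM in triple replicate 3 against 0.737 CPM in Sham replicate 2. The 8 members of the set that the filter removed stayed at or below 1.06 CPM. Krt28, Krt83, Krt71 and Krt222 were named after their values were seen.

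Counted over the family, 0 of 23 tested keratins passed an edgeR adjusted p of 0.05 in any of 7 comparisons or in the test over 5 groups, where the share over all 16017 genes was 0%, apart from 0.00624% (1 gene) in TGFbi against Sham. At an unadjusted p under 0.05, triple against Sham had 2 keratins (1 higher and 1 lower) where 14.9% of all genes passed, TGFbi+RT against Sham 2 (both higher, against 15%), RT against Sham 3 (1 higher and 2 lower, against 4.2%) and TGFbi against Sham 5 (all higher, against 8.48%). The other comparisons had 1 in triple against TGFbi+RT (lower, 1.99% of all genes), 4 in TGFbi+RT against RT (3 higher, 9.62%), 3 in TGFbi+RT against TGFbi (all lower, 6.06%) and 7 in the test over 5 groups (10.8%). These counts are of the tested members and not of the family as a whole. The 2 counts against Sham of tumors that had both inhibitor and radiation are below the share over all genes.

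DESeq2 called Krt19 and Krt75 in TGFbi+RT against Sham (3% of all genes), Krt75 and Krt90 in TGFbi against Sham (0.724%), and Krt1, Krt5, Krt75 and Krt90 over the 5 groups (4.1%), whereas limma-voom called 0 keratins. Leaving out Sham replicate 1, edgeR called Krt90 in TGFbi against Sham (0.0122% of 16414 genes) and over the 5 groups (0.00609%).

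Separation without overlap between 2 groups of 3 was counted as well. Triple against Sham had 3 higher and 4 lower keratins without overlap (16.6% of all genes), a count above the share over all genes, whereas its count by unadjusted p was below that share. The other counts of higher and lower keratins were 3 and 0 in TGFbi+RT against Sham (18.3%), 1 and 5 in RT against Sham (12%), 3 and 1 in TGFbi against Sham (15.3%), 0 and 2 in triple against TGFbi+RT (4.99%), 4 and 1 in TGFbi+RT against RT (16%) and 0 and 1 in TGFbi+RT against TGFbi (11.4%). Of these other counts, those of TGFbi+RT against Sham and of TGFbi+RT against TGFbi were below the share over all genes. The rest were above it by a few genes at most, as in the triple tumors. These counts are not read as a result about the family. The 4 comparisons with Sham share the same 3 Sham tumors. The median log2 fold change of the 23 keratins was -0.18 in triple (all genes -0.004), -0.07 in TGFbi+RT (all genes -0.01), 0.01 in RT (0.01) and 0.46 in TGFbi tumors against Sham (-0.01), the last with 17 positive and 6 negative values. Without TGFbi replicate 1 the last median was -0.23. Without Sham replicate 1 the medians of the triple, TGFbi+RT and RT tumors were 0.50, 0.37 and 0.31, and without Sham replicate 2 they were -0.44, -0.16 and -0.30. Every one of these medians changed sign when some single tumor was left out, over ranges of -0.46 to 0.50, -0.16 to 0.37, -0.30 to 0.31 and -0.23 to 0.88 over 18 alternatives.

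**Figure D5:**
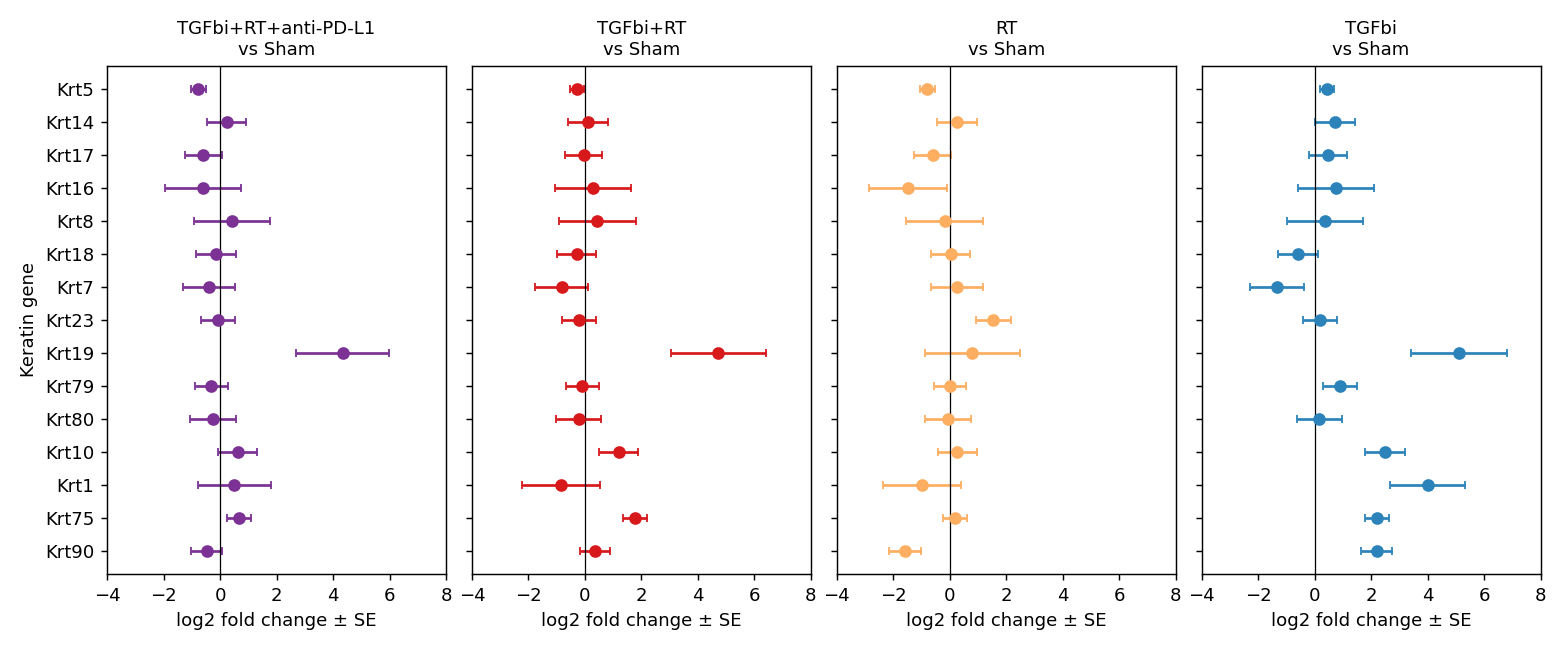
Log2 fold change against Sham with its SE (horizontal axis) of 15 keratins in the 4 treated groups, 1 panel each, from the edgeR fit. Krt19 lies to the right in the 3 panels with inhibitor (4.34 to 5.12), Krt75 in the TGFbi+RT and TGFbi panels (1.76 and 2.21), and Krt5 to the left in the triple and RT panels (-0.77 and -0.79).

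A 2 by 2 comparison of the 12 RT, TGFbi, TGFbi+RT and Sham tumors, added after the data were seen, averaged each agent over presence and absence of the other. With the inhibitor, Krt75 was higher by 1.90 ± 0.30 (edgeR adjusted p = 0.0755), Krt90 by 2.06 ± 0.40 (adjusted p = 0.0927), Krt19 by 4.52 ± 1.16 (adjusted p = 0.14), Krt10 by 1.71 ± 0.49 (adjusted p = 0.166) and Krt5 by 0.48 ± 0.18 (adjusted p = 0.267). Krt19 was higher by 2.09 without TGFbi replicate 1 and Krt10 by 0.82 without TGFbi replicate 3 (edgeR adjusted p = 0.255 and 0.261). Krt75, Krt90, Krt19, Krt10 and Krt5 were the 5 keratins with an unadjusted p under 0.05, against 14.3% of all genes, and 0 passed after adjustment (0.0312% of all genes). DESeq2 called Krt75, Krt90 and Krt19 here (2.92% of all genes), and edgeR called Krt90 without Sham replicate 1 (0.0244%). With radiation, the log2 fold changes were -1.71 ± 0.39 for Krt90, -0.76 ± 0.18 for Krt5 and -2.91 ± 0.98 for Krt1 (edgeR adjusted p = 0.782 each), 3 keratins against 6.12% of all genes. Without TGFbi replicate 3 the value of Krt1 was -0.74, and without Sham replicate 1 that of Krt90 was -1.11. For the interaction, Krt23 alone had an unadjusted p under 0.05 (-1.94 ± 0.86, edgeR adjusted p = 1, and -1.22 without RT replicate 3), against 3.8% of all genes. RT tumors differ from the other 3 groups in library code.

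Genes that work with keratins were described from lists of 14 kinds. No list had a member past an edgeR adjusted p of 0.05 in the 7 comparisons, the 2 by 2 comparisons or the test over 5 groups. The counts at an unadjusted p under 0.05 over the 5 groups that follow stand beside 10.8% of all genes. In the desmosome list, the junctions that anchor keratin filaments between cells, 0 of 10 members had an unadjusted p under 0.05 over the 5 groups, and Dsp was at 286 to 497 CPM in all tumors but TGFbi replicate 1 (936 CPM) and Sham replicate 1 (509 CPM). Of 10 hemidesmosome genes, which anchor Krt5 and Krt14 filaments to the basement membrane, 2 had. Col17a1 measured 304, 225 and 249 CPM in triple, 279, 370.4 and 249 CPM in TGFbi+RT, 376, 364 and 317 CPM in RT, 386, 469 and 466 CPM in TGFbi and 536, 477 and 309 CPM in Sham tumors. All triple tumors were below Sham in Col17a1 (-0.77 ± 0.21, edgeR adjusted p = 0.194), and DESeq2 called it there (3.86% of all genes). Itgb4 was higher with the inhibitor by 0.58 ± 0.15 in the 2 by 2 comparison (edgeR adjusted p = 0.14), where DESeq2 called it (2.92% of all genes).

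Padi3, the enzyme that converts arginine to citrulline in hair follicle proteins, was lower in all 9 irradiated tumors than in all 6 unirradiated ones. It measured 49.7, 40.5 and 17.7 CPM in triple, 29.8, 40.5 and 44.8 CPM in TGFbi+RT, 49.3, 43.5 and 53.7 CPM in RT, 106, 101 and 67.6 CPM in TGFbi and 109, 104 and 60.9 CPM in Sham tumors. The log2 fold change was -1.34 ± 0.34 in triple against Sham (edgeR adjusted p = 0.194) and -1.08 ± 0.24 for radiation in the 2 by 2 comparison (adjusted p = 0.782). DESeq2 called Padi3 in triple (3.86% of all genes) and in TGFbi+RT against Sham (3%) and over the 5 groups (4.1%). Tchh, trichohyalin of the inner root sheath, was at 2.16, 3.38 and 0.767 CPM in TGFbi+RT and 0.477, 0.409 and 0.0648 CPM in Sham tumors (2.70 ± 0.79, edgeR adjusted p = 0.207), and DESeq2 called it there (3% of all genes).

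In the cornified envelope list, 14 of 25 genes were tested, and 1 of them, Krtdap, had an unadjusted p under 0.05 over the 5 groups. In the 2 by 2 comparison 13 of 14 were higher with the inhibitor (median 0.89, all genes -0.01) and 13 of 14 lower with radiation (median -0.75, all genes 0.01). These genes were measured in the same tumors, so the counts are not independent. Triple tumors are not part of the 2 by 2 comparison. Against Sham, 12 of 14 were lower in RT tumors and 12 of 14 in triple tumors. In TGFbi+RT tumors 10 of 14 were higher than in Sham, and in TGFbi tumors 11 of 14. Against TGFbi+RT, 13 of 14 were lower in triple tumors. The summed list overlapped between groups, at 23.4 to 114.7 CPM in triple, 37.2 to 146.7 CPM in TGFbi, 42.7 to 115.5 in TGFbi+RT, 67.1 to 72.8 in RT and 41.5 to 113.6 in Sham tumors. Of 17 tested luminal epithelial genes 4 had an unadjusted p under 0.05 over the 5 groups, and of 14 basal and myoepithelial genes 1, Myh11, had. Acta2, the smooth muscle actin of myoepithelial cells and of fibroblasts, was at 115 to 604 CPM. Of 10 tested intermediate filament genes of other types, such as vimentin and lamins, 0 had. Of the lists of other cell types, 6 of 12 tested leukocyte genes, 3 of 7 adipocyte genes, 1 of 2 skeletal muscle genes (Mb) and 0 of 8 fibroblast, 6 endothelial and 4 erythrocyte genes had such a p. In triple against Sham, DESeq2 called 3.86% of all genes. Among them were 7 leukocyte and 5 adipocyte genes, 1 muscle gene (Mb) and 3 luminal genes (Foxa1, Pgr and Prlr), besides Col17a1 and Padi3. By limma-voom, 0 genes of the lists passed in any comparison. Krt6a and Krt6b, the tested keratins with a letter in the symbol, had edgeR adjusted p of 0.851 and 0.943 over the 5 groups.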

How the data were processed

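The deposited file holds raw counts of fragments per Entrez gene for 15 tumors and 1 internal reference library, with no normalization. Column names mention the Subread aligner, per the file headers, and the genome build is GRCm38, per the submitters' processing notes; the strand setting and annotation release are not given in the sources used here. A second deposited table gives other values, exon coordinates and gene length. Symbols were joined by Entrez identifier, matching 25275 of 27179. In R 4.3.3, edgeR 4.0.16 filterByExpr kept 16017 genes, libraries were scaled by TMM (factors 0.919 to 1.05), and a quasi-likelihood model with a mean for each of the 5 groups used all 15 tumors (10 residual degrees of freedom, common biological coefficient of variation 0.364). P-values were adjusted over all genes by Benjamini-Hochberg, with a threshold of 0.05. Depth was 11002869 to 17184023 counts per tumor, and intervals cover counting error only. Chi-square per gene between tumors of a group was 14.0 to 129, so none looked like a repeat deposit. The pipeline was tested on simulated data.

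Alternatives were DESeq2 1.42.0, limma-voom (limma 3.58.1), other size factors, library totals and filters, fits of the compared groups alone, each tumor left out in turn, the 2 resubmitted or 2 leukocyte-rich tumors left out, a replicate block and the library code as a term. Correlations of 6 keratin pairs used 100000 permutations, two-sided, in Python 3.11.15 with scipy 1.17.1. Where nothing in the labels says more, p-values measure the spread between the 3 tumors of a group. The keratins named are Krt5, Krt14, Krt8 and Krt18, the 10 with the highest mean level per length and, per comparison, up to 6 with the smallest p under 0.05; from each related list the 2 genes with the smallest p over the 5 groups are taken, of which those bearing on keratins are named. Members and lists were chosen with earlier results of these data known. The internal reference library enters no comparison.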

Additional observations from a re-analysis of the deposited data

Results flagged for a closer look

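In the internal reference library, which is in no treatment group and held 9003730 counts, 2 keratins lay above the highest Sham tumor. Krt8 was at 67.2 CPM there (605 counts, exact 95% binomial interval 61.9 to 72.8 CPM), against at most 21.5 CPM in Sham tumors. Krt222 was at 0.889 CPM (8 counts, interval 0.384 to 1.75 CPM), against at most 0.737 CPM in Sham tumors. The reference levels are CPM without TMM scaling, and the intervals cover counting error only. The same library held 601 counts of Krt14 (66.8 CPM), 188 of Krt18 (20.9 CPM) and 1 of Krt17 (0.111 CPM), and 0 of Krt5 (exact 95% binomial interval up to 0.41 CPM).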

How the results depend on the processing

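By edgeR 0 keratins passed in each comparison. DESeq2 called 2 in TGFbi+RT against Sham, 2 in TGFbi against Sham, 3 for the inhibitor in the 2 by 2 comparison and 4 over the 5 groups; the cause was not tested. With each tumor left out in turn, the count ranged from 0 to 1 in TGFbi against Sham, for the inhibitor and over the 5 groups, the 1 being Krt90 without Sham replicate 1, and was 0 in the other comparisons. With a replicate block 0 keratins were called in each comparison. The labels do not say that equal numbers pair tumors. Over 30 same-numbered pairs the correlation of deviations was -0.636 to 0.701 (median -0.056, 12 pairs over 0.1), and 6 of 15 tumors correlated best with their own number. Deviations from a mean of 3 tumors depend on one another, so these values cannot exclude a pairing. Of the 29 keratin log2 fold changes with an unadjusted edgeR p under 0.05, 28 kept their sign in all alternatives tried. They were chosen by that p in the same tumors, so this says nothing about the other keratin values. Krt1 in TGFbi against Sham ranged from -0.35 without TGFbi replicate 3 to 4.59 without TGFbi replicate 2, and was -0.37 without the 2 resubmitted libraries. Among correlations, Krt14 with Krt17 was 0.36, Krt1 with Krt10 -0.09 and Krt5 with Krt14 -0.15 without the 2 tumors farthest from the median, and Krt14 with Krt18 was 0.55 without the 2 leukocyte-rich tumors, 0.56 within 1 library code and 0.61 without the 2 farthest tumors. Of 900 class medians under alternatives, 154 moved by more than a spread between tumors taken for each class. That spread, which includes members the filter removed, was 0.174 (log2) for hair and 1.08 for luminal keratins. The count therefore depends on the class and cannot be compared between classes. Hair keratins at a few counts per tumor are limited by depth, and 3 tumors a group limit all comparisons.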
